A study of Mus musculus with 59 samples.

Results

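The 10 genes described here mark the inhibitory neurons of the cerebral cortex: Gad1, Gad2, Slc32a1, Lhx6, Pvalb, Sst, Cort, Npy, Vip and Cck. They were taken by name from the 51456 gene identifiers of an mRNA sequencing study of the mouse prefrontal cortex, and all 10 were among the 16919 genes whose mean over the libraries reached 10. The study asked what the antidepressant fluoxetine and the mood stabilizer lithium do to gene expression in mice heterozygous for Ank2, the ankyrin-B gene. Its 6 groups of genotype and drug were HT fluoxetine, HT lithium, HT vehicle, WT fluoxetine, WT lithium and WT vehicle, where HT stands for Ank2 heterozygotes and WT for wild type, all C57BL/6J. Each group had 5 female and 5 male libraries, except WT fluoxetine with 4 male ones, 59 libraries in all. Every mouse had its drug or vehicle through the milk of its mother for 3 weeks, over postnatal days 3 to 24, and was examined on day 25. The labels name neither the Ank2 allele nor an animal, mother or litter for each library, so p-values measure the spread between libraries. Libraries of a group may come from littermates that shared a treated mother, and the spread between litters could not be measured.

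Inhibitory neurons of the cortex release GABA onto nearby cells and set the timing and the gain of cortical activity. Their precursors come from the ganglionic eminences of the embryonic forebrain, and Lhx6 stays on in those of medial origin, which become the parvalbumin and the somatostatin cells. The remaining cells, of caudal origin, include those that carry Vip, and many Cck cells. The parvalbumin cells are fast-spiking, and in mice their Pvalb mRNA is still rising in the weeks before weaning.

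Values are normalized values as deposited, taken to be estimated gene counts divided by a factor for each library, whose sums per library ran from 30294700 to 33772300 at an estimated depth of 25853400 to 36530000 reads. Ank2 was at 17431 to 22813 in the 30 HT libraries and at 23284 to 35821 in the 29 WT libraries, without overlap. Log2 changes come from 1 linear model (limma) of log2(value + 1) over the 12 groups of genotype, drug and sex, averaged over the sexes and given with their standard error (SE). A gene was called, and is said to have risen or fallen, at a Benjamini-Hochberg adjusted p under 0.05 over all 16919 genes. In bulk tissue, fewer cells of a type and less RNA per cell cannot be told apart. A set of 12 libraries, written below as the 12 libraries with non-cortical markers, had markers of the olfactory bulb, striatum, dentate gyrus or choroid plexus more than 1 log2 unit above the median of all libraries: HT fluoxetine females 1 and 2, HT lithium male 1, HT vehicle females 1, 3 and 4, HT vehicle male 2, WT fluoxetine male 1, WT lithium males 1 and 2, and WT vehicle females 1 and 2. Each call of a member below was repeated without them, and the calls of other named genes were not. HT fluoxetine female 2 stood furthest apart, 5.76 log2 units above the median for choroid plexus markers and 4.03 for dentate gyrus markers. The cut was set against the median of all libraries, so the other 47 libraries were not free of these markers. The olfactory bulb marker Cdhr1 had a median of 1866 over all libraries and a lowest value of 76.1. Without the 12, olfactory bulb levels still reached down to -4.09 from the median, in HT lithium male 2.

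Every member was present in every library, the lowest value of all being Cort at 68.6 in a WT fluoxetine female. The order of their levels was read after division by the mean length of the transcripts listed for each gene, all counted equally. Gad1 had 8 listed transcripts with a mean of 1926 bases, while Sst had 1 of 721 and Npy 1 of 566. The place of Gad1 depends on this length, and no other length was tried. In the WT vehicle cortex the peptide gene Cck led with 10545 ± 697 per kb (SD, n = 10 here and for the other WT vehicle levels). Gad1 followed with 6609 ± 2116, Sst with 5007 ± 1026 and Npy with 4403 ± 422. Gad2 had 1880 ± 231, Slc32a1 861 ± 142, Vip 629 ± 49.6 and Pvalb 569 ± 109 per kb. Lhx6, at 212 ± 62.5, and Cort, at 205 ± 29.4 per kb, were the lowest. Neighbours in this order did not all separate: Cck was above Gad1 in 9 of 10 WT vehicle libraries, Gad1 above Sst in 7, Sst above Npy in 8, Vip above Pvalb in 7 and Lhx6 above Cort in 6. The other 4 neighbouring pairs kept their order in all 10. WT vehicle females 1 and 2, among the 12 libraries with non-cortical markers, had undivided Gad1 values of 22378 and 17365 (group median 11293). Their undivided Sst values were 2183 and 2415 (group median 3842), and the order was not read again without them. Over all 59 libraries the coefficient of variation was highest for Gad1 (27.9%), Pvalb (23.3%) and Cort (22.2%), and lowest for Gad2 (13.1%), Cck (13.8%) and Vip (14.2%).

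**Figure D1:**
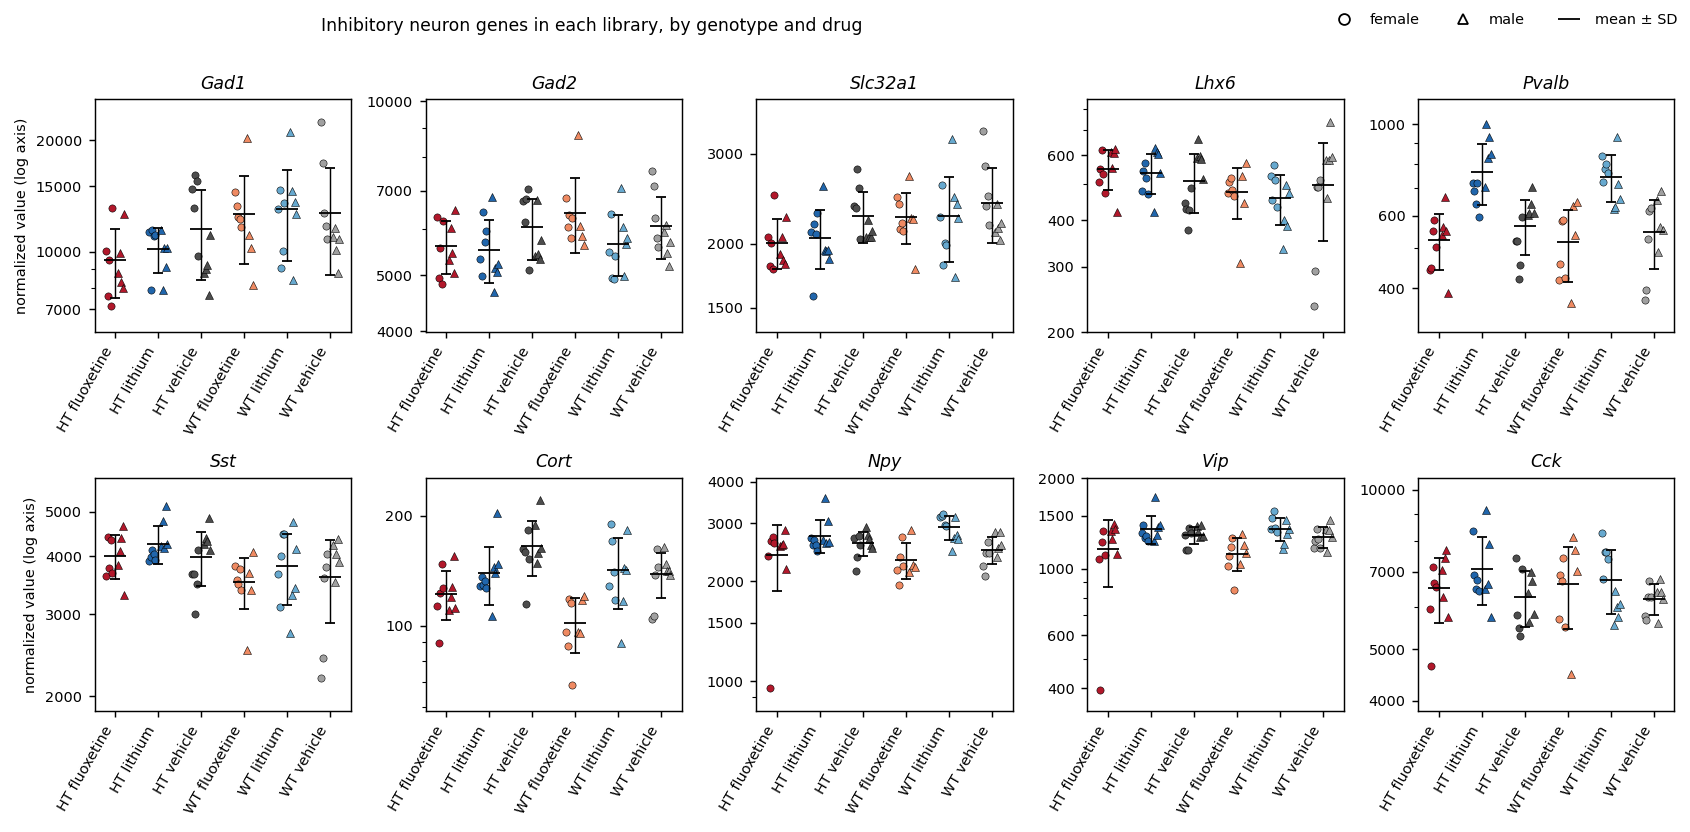
Normalized value (log axis) of each member in each of the 59 libraries, by genotype and drug, with circles for females, triangles for males and bars for the mean ± SD. Pvalb is high in both lithium groups (means 768 in HT lithium and 747 in WT lithium), Cort is low in both fluoxetine groups (means 123 in HT fluoxetine and 102 in WT fluoxetine), and 1 HT fluoxetine female is far below the others for Npy (957) and Vip (394).

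Upstream sequence was examined for the members, since several of these peptide genes are textbook targets of cAMP and calcium signalling through CREB. CREB binds the palindrome TGACGTCA, or the shorter TGACGT, on either strand. The 250 bases before the RefSeq start of each member were read on build GRCm38.p6 and searched on both strands for TGACGTCA, for TGACGT and for the TATA box letters TATAAA. The palindrome was found in Sst alone, at -48 to -41 from the start, the known cAMP response element of this gene, and is shown with its 30-base surroundings. TGACGT occurred outside a palindrome in Vip alone, at -79 to -74, and Vip also held TATAAA at 3 places. Gad1 held TATAAA on the reverse strand, at -141 to -136, and the other 7 members had none of the letters. Among 32536 RefSeq promoters of the mouse, 1.56% held TGACGTCA, 6.50% TGACGT and 12.3% TATAAA in the same window. Pvalb and Cort are shown because they changed with the drugs; capitals mark the letters searched for, and Pvalb and Cort have none.
Sst, chr16:23890874-23890903, minus strand: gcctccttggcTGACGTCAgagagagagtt
Vip, chr10:5638968-5639217, plus strand: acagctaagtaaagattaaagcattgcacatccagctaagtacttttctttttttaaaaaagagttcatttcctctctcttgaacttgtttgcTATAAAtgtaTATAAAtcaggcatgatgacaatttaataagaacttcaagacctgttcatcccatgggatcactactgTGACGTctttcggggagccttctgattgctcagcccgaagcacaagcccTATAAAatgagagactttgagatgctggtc
Pvalb, chr15:78206401-78206650, minus strand: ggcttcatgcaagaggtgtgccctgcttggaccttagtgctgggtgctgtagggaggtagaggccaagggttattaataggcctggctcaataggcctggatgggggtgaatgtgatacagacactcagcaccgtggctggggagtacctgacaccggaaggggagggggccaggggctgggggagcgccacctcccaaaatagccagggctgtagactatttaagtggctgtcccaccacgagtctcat
Cort, chr4:149126764-149127013, minus strand: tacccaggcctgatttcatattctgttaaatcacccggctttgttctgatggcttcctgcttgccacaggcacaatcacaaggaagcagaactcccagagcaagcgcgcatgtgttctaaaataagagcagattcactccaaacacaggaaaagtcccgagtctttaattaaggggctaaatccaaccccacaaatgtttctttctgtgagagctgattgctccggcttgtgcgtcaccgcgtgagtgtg
These are matches of letters in a window, not measured binding sites.

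Pvalb was the only member called for lithium against vehicle, and it rose in both genotypes. It codes for parvalbumin, a calcium buffer of fast-spiking basket and chandelier cells (ENSMUSG00000005716, chromosome 15, 78191114 to 78206400, minus strand, GRCm38). Its values (lowest, median, highest) were 622, 744 and 931 in WT lithium libraries, against 375, 558 and 689 in WT vehicle libraries. In HT lithium libraries they were 596, 719 and 1000, against 421, 598 and 703 in HT vehicle libraries. The groups overlapped, but 7 of 10 WT lithium libraries lay above every WT vehicle library and all 10 lay above their median. Likewise 7 of 10 HT lithium libraries lay above every HT vehicle library, and 9 of 10 above their median.

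Pvalb rose by 0.46 on the log2 scale (SE 0.10, 1.37-fold, limma adjusted p = 0.0043) in WT lithium against WT vehicle. It rose by 0.43 (SE 0.10, 1.35-fold, adjusted p = 0.0058) in HT lithium against HT vehicle. The lithium effect differed between HT and WT by -0.02 (SE 0.14, adjusted p = 0.98). Pvalb was 1 of 10 members called in each comparison; over all genes, 2.22% were called in WT lithium against WT vehicle (1.33% higher, 0.892% lower) and 5.01% in HT lithium against HT vehicle (2.75% higher, 2.26% lower). Against WT vehicle, HT lithium had Pvalb 0.49 higher (SE 0.10, adjusted p = 0.0014), again the only member of 10 called, in a comparison with 7.91% of all genes called (4.16% higher, 3.75% lower). Among alternatives, Sst was called with a minimum mean of 50 (0.265, adjusted p = 0.048) or a block for replicate number (0.037). Omitting any 1 of WT vehicle females 3, 4 and 5 called it (adjusted p from 0.022 to 0.040). With the trend in transcript length and GC content removed, Sst (0.34, adjusted p = 0.022) and Cck (0.27, adjusted p = 0.038) were called. Slc32a1 fell without HT lithium male 1 (adjusted p = 0.035) or WT vehicle female 5 (0.046).

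Olfactory bulb markers were lower in group mean for 8 of 8 genes with lithium in both genotypes (median -0.17 in WT and -0.81 in HT, none called). The median library went the other way in WT. The mean log2 deviation of these markers had a median of 0.91 in WT lithium libraries, against 0.66 in WT vehicle libraries. In HT lithium the median was 0.08, against 0.31 in HT vehicle. With olfactory bulb and striatum marker levels as covariates the rise of Pvalb was 0.44 in WT (adjusted p = 0.000585) and 0.35 in HT (adjusted p = 0.0076). It kept its call without the 12 libraries with non-cortical markers (0.39 in WT, adjusted p = 0.0087; 0.38 in HT, adjusted p = 0.012) and when each library was left out in turn (adjusted p at most 0.016 in WT and 0.019 in HT). Females of WT had a change of 0.65 and males one of 0.26, and in HT the values were 0.43 for females and 0.44 for males. With the fit restricted to males, neither was called (adjusted p = 0.44 in WT and 0.20 in HT), and restricted to females, WT was called (0.019) and HT was not (0.070). The difference between the sexes was 0.39 in WT (SE 0.20, adjusted p = 0.45) and was not called.

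The median change of the 10 members was 0.06 in WT lithium and 0.07 in HT lithium, against 0.00 over all genes in both, and no other member was called. Npy, the neuropeptide Y gene, had 2479, 2947 and 3188 (lowest, median, highest) in WT lithium libraries, against 2074, 2483 and 2827 in WT vehicle libraries, a change of 0.23 (SE 0.10, adjusted p = 0.28). It was called when the compared groups were fitted alone (adjusted p = 0.011). In HT the lithium change of Npy was 0.08 (SE 0.10, adjusted p = 0.71). Cort was at 0.02 (SE 0.11) in WT lithium and at -0.24 (SE 0.11, adjusted p = 0.21) in HT lithium, each against its own vehicle group. Sst had 0.09 in WT lithium and 0.10 in HT lithium (SE 0.09 each), and Vip 0.09 and 0.06 (SE 0.11 each).

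Of the 40 other inhibitory neuron genes, 1 rose in WT lithium against WT vehicle, where 2.22% of all genes were called. In HT lithium against HT vehicle, where 5.01% of all genes were called, 3 rose, and none fell in either comparison. Kcnc1, a fast delayed-rectifier potassium channel of fast-spiking cells, rose by 0.18 in WT lithium (adjusted p = 0.0020) and by 0.17 in HT lithium (adjusted p = 0.0018), each against its vehicle group. Hapln4, a link protein of the perineuronal net, rose by 0.49 (SE 0.10, adjusted p = 0.0018), and Syt2, a fast calcium sensor at parvalbumin synapses, by 0.58 (SE 0.17, adjusted p = 0.033) in HT lithium. In WT lithium Hapln4 was at 0.30 (adjusted p = 0.083) and Syt2 at 0.29 (adjusted p = 0.46). Kcnc1, Hapln4 and Syt2 also rose in WT fluoxetine against WT vehicle, where Pvalb was not called. The median change of the 40 genes with lithium was -0.02 in WT and -0.03 in HT, against 0.00 over all genes in both. In WT lithium 17 of the 40 were higher than in WT vehicle and 23 lower. In the same comparisons, immediate early genes, which mark recent neuronal activity, rose in 9 of 10 cases in WT lithium (median 0.87) and in 0 of 10 in HT lithium (median 0.36, with 4 of 10 at an unadjusted p under 0.05). The lithium by genotype difference called 0% of all genes, so these counts do not establish a difference between the genotypes. The part of the immediate early genes in the Pvalb result was not tested.

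**Figure D2:**
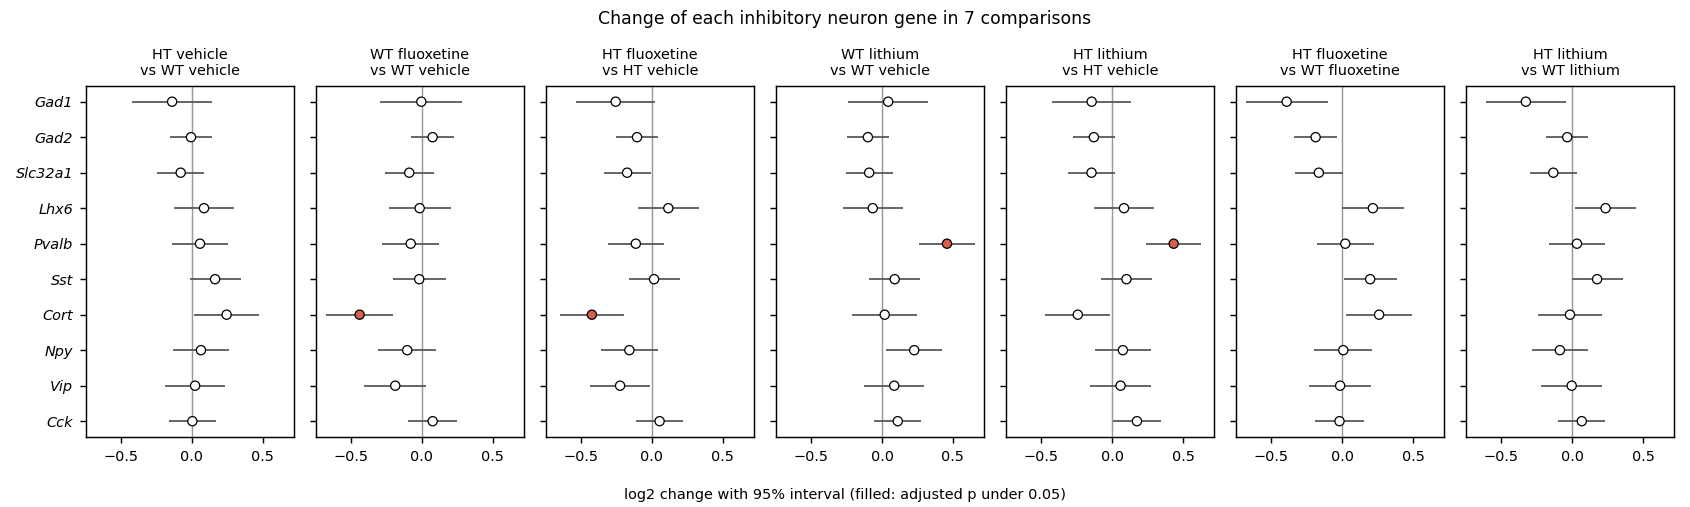
Log2 change with 95% interval of each member in 7 comparisons, averaged over the sexes, with filled points at an adjusted p under 0.05. Filled points are Cort under fluoxetine in WT (-0.44) and in HT (-0.42), and Pvalb under lithium in WT (0.46) and in HT (0.43).

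Cort was the only member called for fluoxetine against vehicle, and it fell in both genotypes. It codes for cortistatin, a peptide related to somatostatin and carried by a subset of Sst and Pvalb cells (ENSMUSG00000028971, chromosome 4, 149125034 to 149126763, minus strand). Its values (lowest, median, highest) were 68.6, 96.2 and 121 in WT fluoxetine libraries, against 105, 141 and 164 in WT vehicle libraries. They were 89.4, 122 and 156 in HT fluoxetine libraries, against 114, 161 and 221 in HT vehicle libraries. The ranges overlapped, yet all 9 WT fluoxetine libraries lay below the WT vehicle median and all 10 HT fluoxetine libraries below the HT vehicle median. Below every library of their vehicle group lay 5 of the 9 WT fluoxetine and 4 of the 10 HT fluoxetine libraries.

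Cort fell by 0.44 on the log2 scale (SE 0.12, 0.737-fold, limma adjusted p = 0.0063) in WT fluoxetine against WT vehicle. It fell by 0.42 (SE 0.11, 0.746-fold, adjusted p = 0.0076) in HT fluoxetine against HT vehicle, and the effects differed by 0.02 (SE 0.16, adjusted p = 0.99). It was 1 of 10 members called in each, which is close to the background: 14.8% of all genes were called in WT fluoxetine against WT vehicle (7% higher, 7.78% lower) and 14% in HT fluoxetine against HT vehicle (6.63% higher, 7.38% lower). With the trend in transcript length and GC content removed from each library, Cort, whose transcript has 677 bases, was at -0.28 in WT (adjusted p = 0.16) and at -0.33 in HT (adjusted p = 0.057), and the calls were lost. The calls were kept with olfactory bulb and striatum marker levels as covariates (-0.45 in WT, adjusted p = 0.0042; -0.51 in HT, adjusted p = 0.0021), and without the 12 libraries with non-cortical markers (-0.51 in WT, adjusted p = 0.00077; -0.39 in HT, adjusted p = 0.028). Within females the change was -0.43 in WT and -0.36 in HT, and within males -0.44 in WT and -0.49 in HT; restricted to 1 sex, none of these was called (adjusted p from 0.077 to 0.18).

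No other member was called for fluoxetine against vehicle in either genotype, and the median of the 10 was -0.05 in WT and -0.14 in HT. Sst (ENSMUSG00000004366, chromosome 16, 23889573 to 23890958, minus strand), whose receptors cortistatin also binds, had 2512, 3565 and 4097 (lowest, median, highest) in WT fluoxetine libraries, against 2183, 3842 and 4368 in WT vehicle libraries. Its change was -0.02 (SE 0.09) in WT and 0.01 (SE 0.09) in HT. Pvalb was at -0.08 (SE 0.10) in WT and -0.11 (SE 0.10) in HT, where it was called with olfactory bulb and striatum marker levels as covariates (-0.25, adjusted p = 0.034). Vip, the vasoactive intestinal peptide gene of cells that inhibit other inhibitory neurons (ENSMUSG00000019772, chromosome 10, 5639218 to 5647617, plus strand), was at -0.19 in WT (SE 0.11, adjusted p = 0.27) and -0.22 in HT (SE 0.11, adjusted p = 0.16). Npy (ENSMUSG00000029819, chromosome 6, 49822710 to 49829507, plus strand) was at -0.10 in WT and -0.16 in HT (SE 0.10 each). Cck (ENSMUSG00000032532, chromosome 9, 121489824 to 121495694, minus strand), which excitatory neurons of the cortex also express, was at 0.08 in WT (SE 0.09) and 0.05 in HT (SE 0.08).

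Among the 40 other inhibitory neuron genes, 5 rose in WT fluoxetine against WT vehicle, beside 14.8% of all genes called. In HT fluoxetine against HT vehicle 1 of the 40 fell, beside 14% of all genes called. Neither count exceeded the share over all genes. Those that rose in WT were Erbb4, the neuregulin receptor (0.19, adjusted p = 0.0033), Syt2 (0.65, adjusted p = 0.0064), Hapln4 (0.34, adjusted p = 0.014), Kcnc2, a fast potassium channel (0.17, adjusted p = 0.018), and Kcnc1 (0.11, adjusted p = 0.023). In HT, Tac1, the substance P gene, fell by 0.50 (SE 0.17, adjusted p = 0.035). Syt2 was at 0.45 (adjusted p = 0.064) and Hapln4 at 0.26 (adjusted p = 0.061) in HT fluoxetine, so neither was called there. The median change of the 40 genes was 0.03 in WT and -0.05 in HT, against 0.00 over all genes. Immediate early genes fell in 9 of 10 cases in HT fluoxetine (median -0.66) and in 0 of 10 in WT fluoxetine (median -0.23, with 1 of 10 at an unadjusted p under 0.05). The fluoxetine by genotype difference called 0% of all genes, so these counts do not establish a difference between the genotypes. The part of the immediate early genes in the Cort result was not tested.

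The drugs differed from each other as well. WT fluoxetine had 3 members lower than WT lithium, where 21.3% of all genes were called (10.1% higher, 11.2% lower): Pvalb by -0.54 (SE 0.10, adjusted p = 7.1e-05), Cort by -0.46 (SE 0.12, adjusted p = 0.0030) and Npy by -0.33 (SE 0.10, adjusted p = 0.015). For Pvalb and for Npy, 7 of 9 WT fluoxetine libraries lay below every WT lithium library. Npy (-0.18, adjusted p = 0.26) and Cort (-0.31, adjusted p = 0.069) lost their calls with the length and GC trend removed. Gad2 was not called in the full fit. It was called higher in WT fluoxetine than in WT lithium with olfactory bulb and striatum marker levels as covariates (0.18, adjusted p = 0.0051). Without WT lithium male 1 it was also called (0.21, adjusted p = 0.046). HT fluoxetine had Pvalb lower than HT lithium by -0.55 (SE 0.10, adjusted p = 9.5e-05), with 9 of 10 HT fluoxetine libraries below every HT lithium library; 13.1% of all genes were called (6.18% higher, 6.88% lower). Vip missed the threshold in both, at -0.27 in WT (SE 0.11, adjusted p = 0.066) and -0.28 in HT (SE 0.11, adjusted p = 0.065). It was called with the length and GC trend removed (-0.36 in WT, adjusted p = 0.021; -0.33 in HT, adjusted p = 0.038), in WT also with the compared groups alone (-0.27, adjusted p = 0.0060), without the 12 libraries with non-cortical markers (-0.29, adjusted p = 0.0011) or without WT fluoxetine female 4 (0.047), and in HT without any 1 of HT fluoxetine females 1, 3, 4 and 5 (adjusted p from 0.021 to 0.0499).

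Genotype alone called no member. In HT vehicle against WT vehicle limma called 0 of 10 members, 1 of them with an unadjusted p under 0.05, beside 0.00591% of all genes (1 gene, Ank2, with 578 at an unadjusted p under 0.05). The 1 member was Cort, at 114, 161 and 221 (lowest, median, highest) in HT vehicle libraries, against 105, 141 and 164 in WT vehicle libraries, a change of 0.25 (SE 0.11, unadjusted p = 0.035, adjusted p = 1.0), with 9 of 10 HT libraries above the WT median. Sst was at 0.16 (SE 0.09), Gad1 at -0.14 (SE 0.14) and the other 7 members between -0.08 and 0.09. The 95% intervals of the genotype change ran from -0.16 to 0.17 for Cck, from -0.15 to 0.14 for Gad2 and from -0.42 to 0.14 for Gad1, the widest. Among the 40 other inhibitory neuron genes limma called none either, with 1 at an unadjusted p under 0.05 and a median of 0.00.

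Under each drug, HT against WT again called 0 of 10 members, 4 of them with an unadjusted p under 0.05 for fluoxetine (0.0118% of all genes called, 15.7% at an unadjusted p under 0.05) and 2 for lithium (0.55% of all genes called, 16.3% at an unadjusted p under 0.05). Lhx6, the transcription factor of medial origin (ENSMUSG00000026890, chromosome 2, 36081953 to 36105408, minus strand), had 422, 552 and 622 (lowest, median, highest) in HT fluoxetine libraries, against 307, 484 and 572 in WT fluoxetine libraries, a change of 0.22 (SE 0.11, adjusted p = 0.32). In HT lithium it had 423, 539 and 625, against 335, 465 and 563 in WT lithium libraries, a change of 0.24 (SE 0.11, adjusted p = 0.26). Gad1 went the other way in both, at -0.39 (SE 0.14, adjusted p = 0.18) in HT fluoxetine against WT fluoxetine and -0.33 (SE 0.14, adjusted p = 0.24) in HT lithium against WT lithium. Olfactory bulb markers were lower in HT for 8 of 8 genes in each of these comparisons (medians -1.35 under fluoxetine and -1.25 under lithium, none called). The drug by genotype differences called 0 of 10 members for either drug (0% of all genes), with 0 members at an unadjusted p under 0.05.

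Calls for the genes of GABA synthesis and transport appeared when HT fluoxetine was set against WT vehicle, so that genotype and drug both differed. Gad1 (ENSMUSG00000070880, chromosome 2, 70553072 to 70602014, plus strand) and Gad2 (ENSMUSG00000026787, chromosome 2, 22622205 to 22693874, plus strand) code for the glutamate decarboxylases that make GABA. Slc32a1 (ENSMUSG00000037771, chromosome 2, 158610767 to 158615748, plus strand) codes for the transporter that loads GABA into vesicles. Gad1 had 7135, 9133 and 13091 (lowest, median, highest) in HT fluoxetine libraries, against 8776, 11293 and 22378 in WT vehicle libraries. Slc32a1 had 1787, 1957 and 2492 in HT fluoxetine libraries, against 2036, 2284 and 3327 in WT vehicle libraries. The ranges overlapped, with 4 of 10 HT fluoxetine libraries below every WT vehicle library for Gad1 and 6 of 10 for Slc32a1.

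Gad1 fell by 0.40 (SE 0.14, limma adjusted p = 0.039) and Slc32a1 by 0.25 (SE 0.08, adjusted p = 0.025) in HT fluoxetine against WT vehicle, while Gad2 was at -0.11 (SE 0.07, adjusted p = 0.31). These were 2 of 10 members called, beside 18.8% of all genes (9.05% higher, 9.8% lower). Gad1 lost its call when any 1 of 10 libraries was left out (HT fluoxetine females 2 and 4 or males 1, 3 and 4, or WT vehicle females 1 and 2 or males 1, 2 and 5; adjusted p up to 0.11), and Slc32a1 lost its call without HT fluoxetine female 4 (0.051) or WT vehicle female 1 (0.074). Without the 12 libraries with non-cortical markers Gad1 was at -0.22 (adjusted p = 0.27) and Slc32a1 at -0.15 (adjusted p = 0.18). Restricted to females, Gad1 was at -0.64 (adjusted p = 0.026) and Slc32a1 at -0.37 (adjusted p = 0.036), and restricted to males at -0.15 (adjusted p = 0.78) and -0.14 (adjusted p = 0.59). With the levels of olfactory bulb and striatum markers as covariates, Gad1 was at -0.02 (SE 0.08, adjusted p = 0.88) and Slc32a1 at -0.05 (SE 0.06, adjusted p = 0.60). Pvalb fell with these covariates (-0.24, adjusted p = 0.048). Sst rose with the length and GC trend removed (0.29, adjusted p = 0.026), and Lhx6 rose with the fit restricted to females (0.47, adjusted p = 0.038). The 8 olfactory bulb markers summed to 463 to 7981 in HT fluoxetine libraries (median 2079), against 2175 to 17136 in WT vehicle libraries (median 5659), and 6 of 8 fell (median -1.65). None of the 8 was at 0 in all libraries of a group, and S100a5 was at 0 in 7 of 59 libraries.

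In the same comparison, where 9.05% of all genes rose and 9.8% fell, 4 of the 40 other inhibitory neuron genes rose and 7 fell (median -0.06, against 0.00 over all genes). Among those with the smallest p were Kcnc2 (0.17), the growth factor gene Igf1 (-0.41), Dlx1 (-0.93) and Dlx6os1 (-0.66), with adjusted p from 0.012 to 0.022. Dlx1 is a homeobox gene of forebrain inhibitory neurons, and Dlx6os1 a long noncoding RNA from a different Dlx locus. Both are also known from the newborn granule cells of the olfactory bulb. In HT lithium against WT vehicle, where 4.16% of all genes rose and 3.75% fell, 3 of the 40 rose and 5 fell, with Kcnc1 (0.17), Hapln4 (0.47), Syt2 (0.63), Adarb2 (-0.47) and Htr3a (-0.26) at the smallest p, adjusted p from 0.0016 to 0.035.

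**Figure D3:**
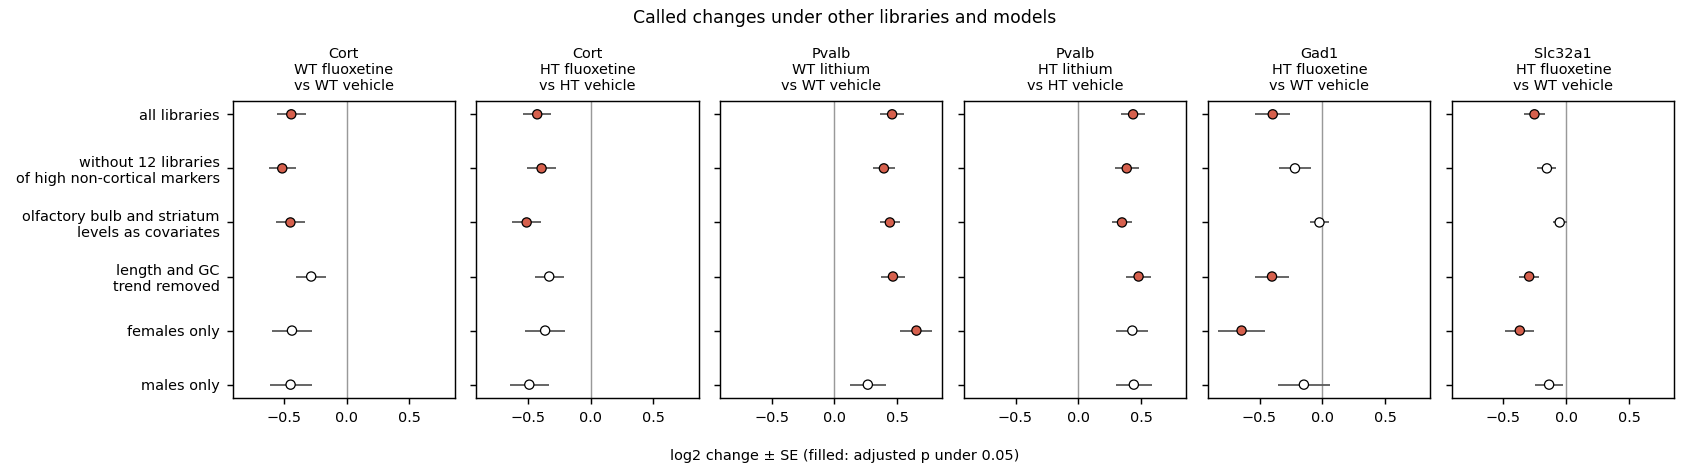
Log2 change ± SE of 6 called member changes with all libraries, without the 12 libraries with non-cortical markers, with olfactory bulb and striatum marker levels as covariates, with the length and GC trend removed, and in each sex alone, with filled points at an adjusted p under 0.05. The Pvalb points stay between 0.26 and 0.65, the Cort points reach -0.28 with the length and GC trend removed, and Gad1 lies at -0.02 with the covariates.

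Library by library, beyond the group means, the members varied in blocks. Over the 59 libraries and the 45 pairs of members, with the means of the 12 groups removed, 36 pairs had a correlation with an adjusted permutation p under 0.05, 21 positive and 15 negative. Gad1, Gad2 and Slc32a1 went together: Pearson's r was 0.89 for Gad1 with Slc32a1 (Spearman's rho 0.85), 0.88 for Gad1 with Gad2 (rho 0.90) and 0.85 for Gad2 with Slc32a1 (rho 0.82). Lhx6, Pvalb and Sst went together as well, with r 0.81 for Lhx6 with Sst (rho 0.72), 0.79 for Lhx6 with Pvalb (rho 0.69) and 0.76 for Pvalb with Sst (rho 0.69). The blocks opposed each other, with r -0.83 for Gad1 with Sst (rho -0.75), -0.79 for Gad1 with Lhx6 (rho -0.77) and -0.73 for Gad1 with Pvalb (rho -0.68). Each of these 9 had a permutation p of 1e-05, the smallest that 100000 resamples can give, and an adjusted p of 2.25e-05.

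These relations were weaker but of the same sign without the 2 libraries farthest from the median of the first gene (r 0.85 for Gad1 with Gad2, -0.79 for Gad1 with Sst, 0.75 for Lhx6 with Sst). Without the 12 libraries with non-cortical markers, r was 0.87 for Gad1 with Gad2, -0.66 for Gad1 with Sst and 0.58 for Lhx6 with Sst, and 35 of 45 pairs were called. Npy and Vip had the highest r of all pairs, 0.91 (rho 0.78, permutation p 1e-05), which was 0.77 without the 2 farthest libraries and 0.68 without the 12. Cort had r between 0.38 and 0.52 to the 6 members of positive sign and between -0.42 and -0.38 to Gad1, Gad2 and Slc32a1. Without the 12 libraries, r for Cort was 0.43 with Vip, the only member with which it was still called.

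**Figure D4:**
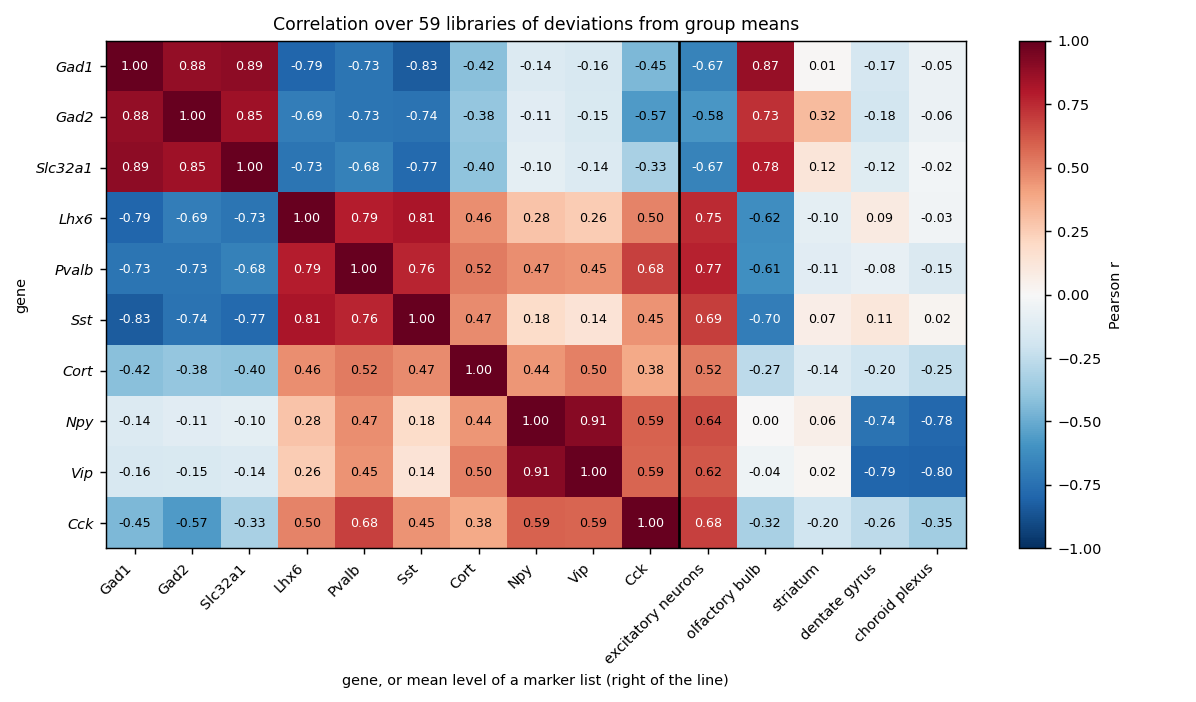
Pearson's r over 59 libraries between the deviations of members from their group means, and, right of the line, between members and the mean level of 5 marker lists (excitatory neurons, olfactory bulb, striatum, dentate gyrus and choroid plexus). Gad1, Gad2 and Slc32a1 form 1 red block (0.85 to 0.89), Lhx6, Pvalb and Sst another (0.76 to 0.81), with blue between them (-0.83 to -0.68).

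The same blocks appeared against markers of other tissue. Across the 59 libraries, the level of olfactory bulb markers had r 0.87 with Gad1 (rho 0.90), 0.78 with Slc32a1 (rho 0.81) and 0.73 with Gad2 (rho 0.78). It had r -0.62 with Lhx6 (rho -0.65), -0.61 with Pvalb (rho -0.57) and -0.70 with Sst (rho -0.77). The permutation p of r was 2e-05 for Pvalb (adjusted p 5.56e-05) and 1e-05 for the other 5 (adjusted p 3.33e-05), adjusted over the 50 relations computed. Leaving out the 2 libraries farthest from the median olfactory bulb level gave r 0.87 for Gad1 and -0.60 for Lhx6. Without the 12 libraries with non-cortical markers r was 0.89 for Gad1 and -0.57 for Lhx6. Excitatory neuron markers had the opposite signs, with r -0.67 for Gad1 (rho -0.71), 0.75 for Lhx6 (rho 0.70) and 0.77 for Pvalb (rho 0.71), again with a permutation p of 1e-05. For Cort with olfactory bulb markers r was -0.27 (rho -0.36, permutation p 0.041, adjusted p 0.086).

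Npy and Vip had r 0.64 (rho 0.64) and 0.62 (rho 0.60) with excitatory neuron markers, each with a permutation p of 1e-05, and 0.53 and 0.52 without the 12 libraries. With olfactory bulb markers r was 0.00 for Npy and -0.04 for Vip, and -0.34 and -0.48 without the 12 libraries. With choroid plexus markers r was -0.78 for Npy (rho -0.26) and -0.80 for Vip (rho -0.29), and with dentate gyrus markers -0.74 (rho -0.18) and -0.79 (rho -0.26), and these relations rested on few libraries. Without the 2 farthest libraries r with choroid plexus markers was -0.42 for Npy and -0.44 for Vip, and without the 12 libraries -0.01 and 0.09. With dentate gyrus markers it was -0.30 for Npy and -0.43 for Vip without the 2 farthest, and 0.03 and -0.16 without the 12. The lowest library for both was HT fluoxetine female 2, with Npy at 957 and Vip at 394, against 2385 to 2725 for Npy and 1079 to 1333 for Vip in the other 4 HT fluoxetine females.

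**Figure D5:**
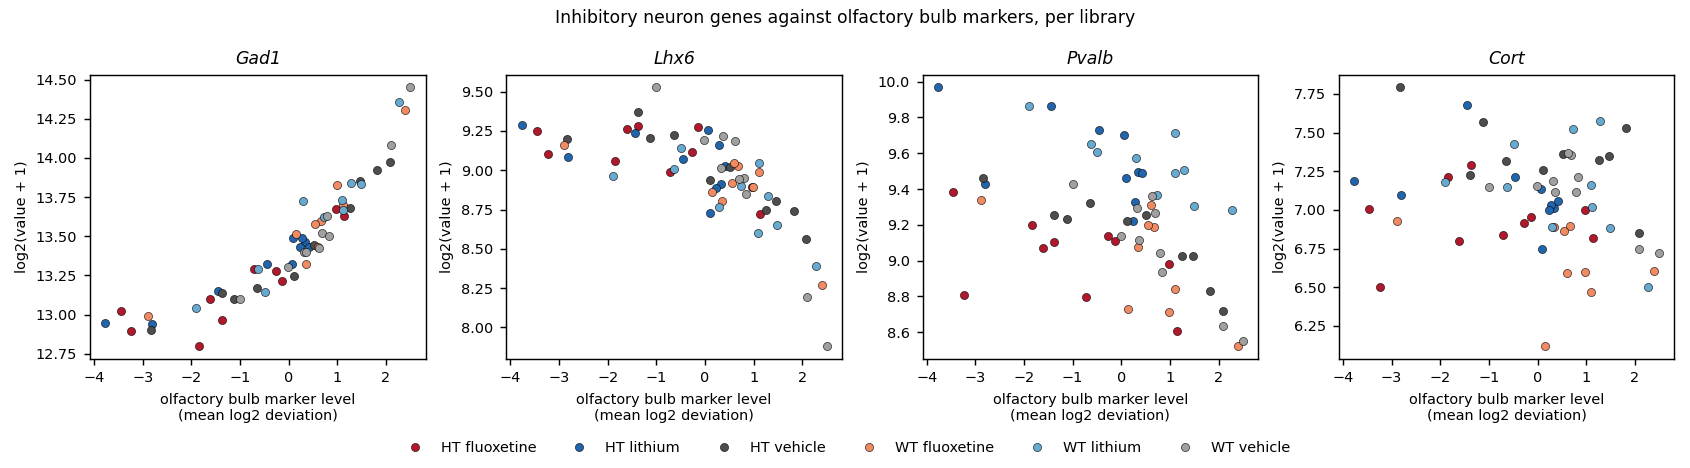
Level of Gad1, Lhx6, Pvalb and Cort (log2(value + 1)) in each library against the mean log2 deviation of 8 olfactory bulb markers, coloured by genotype and drug. With group means removed, r is 0.87 for Gad1, -0.62 for Lhx6, -0.61 for Pvalb and -0.27 for Cort.

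Genes with the most similar pattern to each member were sought among the 13932 with a mean of at least 50, by Pearson's r over the 59 libraries with group means removed. For Gad1 they were Pacsin2 (0.95), Synpr (0.94) and Lrrc55 (0.94), and for Slc32a1 Gad1 (0.89), Pcbp3 (0.89) and Pacsin2 (0.89). Gad2 had Slc35d3 (0.89), Fam102b (0.88) and Gad1 (0.88). Lhx6 had Adcy1, Rab15 and Khdrbs3 (0.83 to 0.82), Pvalb had Rab15, Ly6e and Nrgn (0.83 each), and Sst had Lynx1 (0.89), Cplx2 (0.88) and Kif5c (0.87). For Npy the gene most alike was Vip (0.91), followed by Adra1b and Chrdl1 (0.90 each). For Vip they were Rgs4, Rgs6 and Camk2n1 (0.93 each), for Cck Ctxn1 (0.88), Abhd8 (0.86) and Rtn4r (0.86), and for Cort Scg3 (0.69) and Asic2 (0.65). Only Gad2, Slc32a1 and Npy had another member among the nearest 3. The search was not repeated without the 12 libraries with non-cortical markers, where r for Npy with Vip was 0.68.

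In females against males limma called 0 of 10 members, 4 of them with an unadjusted p under 0.05, beside 2.1% of all genes called and 19% at an unadjusted p under 0.05. The values nearest to a call were Pvalb at -0.17 (SE 0.06, adjusted p = 0.11), Lhx6 at -0.14 (SE 0.06, adjusted p = 0.21) and Gad1 at 0.18 (SE 0.08, adjusted p = 0.21). Pvalb was called without WT fluoxetine male 1 (-0.20, adjusted p = 0.024), and with olfactory bulb and striatum marker levels as covariates Gad1 was at 0.02 (adjusted p = 0.92). Olfactory bulb markers were higher in females for 8 of 8 genes (median 0.72, none called), choroid plexus markers for 11 of 11 (median 0.35, 1 called), and striatum markers lower for 11 of 11 (median -0.23, none called); their part in the sex differences of the members was not tested. Of the 40 other inhibitory neuron genes Elfn1, an adhesion protein of Sst cell synapses, was higher in females (0.16, adjusted p = 0.013), and Cox6a2, a cytochrome c oxidase subunit of parvalbumin cells, lower (-0.26, adjusted p = 0.026).

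Differences between the sexes in the drug effect called no member either. For lithium in WT, 0 of 10 were called and 6 had an unadjusted p under 0.05, beside 0% of all genes called and 11.2% at an unadjusted p under 0.05. Lhx6 had the smallest p of the 10: in females it had 434, 513 and 563 (lowest, median, highest) in WT lithium libraries, against 235, 492 and 515 in WT vehicle libraries. In males it had 335, 402 and 497 in WT lithium libraries, against 459, 583 and 737 in WT vehicle libraries. The log2 difference for Lhx6 was 0.36 in WT females (SE 0.15), against -0.49 in WT males (SE 0.15), a difference of 0.85 (SE 0.21, unadjusted p = 0.00019, adjusted p = 0.23). WT vehicle females 1 and 2, at 235 and 292, and WT lithium males 1 and 2, at 335 and 402, are among the 12 libraries with non-cortical markers, and without these 12 the difference was 0.36 (adjusted p = 0.89).

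Antisense transcripts overlap Gad1 (Gad1os) and Slc32a1 (Gm14205). Their deposited values averaged 3.07 and 1.07, or 0.026% and 0.048% of the mean of the gene they overlap. A microRNA gene within Gad2 was listed at 0.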

How the data were processed

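Poly(A) RNA of the prefrontal cortex was sequenced with a stranded kit, per the labels' protocols. Salmon 0.11.2, DESeq2 1.19.11, R 3.6.0 and GRCm38 are named in the submitters' processing notes, without settings. The deposited signal is taken to be gene-level count estimates scaled per library by the authors, from the tools named and the near-constant sums; no header states the step. Only 28.3% to 66.8% of low values per library (median 56.7%) lay within 0.1 of a whole multiple of 1 read, so counts were not recovered and no count model was used. Of 51456 identifiers, 51285 matched a gene model of GENCODE vM21 on GRCm38.

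Genes with a mean of at least 10 (16919) were fitted on log2(value + 1) by limma-trend with the robust option (limma 3.58.1, run under R 4.3.3), with a mean for each of the 12 groups of genotype, drug and sex, 47 residual degrees of freedom, two-sided tests and Benjamini-Hochberg adjustment at 0.05; fold changes of low genes are understated on this scale. Correlations used deviations from group means and 100000 permutations, with the dentate gyrus relations added after the others were seen (Python 3.11.15, SciPy 1.17.1, NumPy 2.4.6, pandas 2.3.3, matplotlib 3.10.9). The fit was tested on simulated data. Promoters are RefSeq sequences on GRCm38.p6, found for 10 of 10 members; where several starts are listed, 1 was used. Levels per kb divide by the mean transcript length of the gene model. The members, the lists of other inhibitory neuron genes and of markers, and the tests were chosen with earlier results of these data known. All 10 members were named in full; of the 40 other inhibitory neuron genes, at most 5 called per comparison, by smallest p, and the same genes' values in the paired genotype. A few genes that these rules name are not reported here. The alternatives were other pseudocounts (0.5 and 5), other filters, median-of-ratios rescaling, removal of the length and GC trend, a replicate block, the compared groups alone, each sex alone, no robust option, omission of the 12 libraries with non-cortical markers, marker covariates, and each library left out in turn.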

Additional observations from a re-analysis of the deposited data

Results flagged for a closer look

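In 8 of 120 sets of 1 gene in 1 group of genotype, drug and sex, the highest or lowest library stood apart from the rest by Dixon's criterion at 95%, which chance gives in about 1 of 20 sets. HT fluoxetine female 2 was low for Npy, at 957 against 2385 to 2725 in the other females of its group, and for Vip, at 394 against 1079 to 1333. This library also had the highest choroid plexus and dentate gyrus markers, 5.76 and 4.03 log2 units above the median; their part in its low Npy and Vip was not tested. HT lithium male 1 was high for Gad2, at 6837 against 4683 to 5226, and for Slc32a1, at 2592 against 1865 to 1948, with striatum markers 2.01 log2 units above the median. WT fluoxetine male 1 was high for Gad2, at 8762 against 5648 to 6087, with olfactory bulb markers 2.08 above the median, and WT fluoxetine male 2 for Npy, at 2864 against 2137 to 2235. HT lithium female 2 was low for Gad1, at 7869 against 11051 to 11478, with olfactory bulb markers at -3.13 from the median. The part of these markers in these values was not tested. HT lithium female 1 was high for Cck, at 8351 against 6440 to 6906.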

How the results depend on the processing

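Of 6880 member values under the alternatives, 6817 stayed on their side of the threshold, 37 lost a call, 26 gained one and none of the called values changed sign. Values never called changed sign in 408 cases. Changes printed above without a call carry the sign of the full fit, which did not always hold under the alternatives. Npy in WT fluoxetine against WT vehicle, for example, ran from -0.16 to 0.07. Counts below are of members or of all genes called, with the value for the full fit in brackets. Some alternatives used fewer libraries or genes, and the causes of the changes in count were not tested. Without a filter on low values, 4 genes [1] were called in HT vehicle against WT vehicle, 212 [376] in WT lithium against WT vehicle, 448 [847] in HT lithium against HT vehicle, 31 [93] in HT lithium against WT lithium, 816 [1338] in HT lithium against WT vehicle and 172 [355] in females against males, and 1 member [2] in HT fluoxetine against WT vehicle. With a minimum mean of 50, 2 members [1] were called in HT lithium against WT vehicle. With the length and GC trend removed, 0 members [1] were called for fluoxetine in WT and in HT, 3 [1] in HT lithium against WT vehicle and 2 [1] in HT fluoxetine against HT lithium, with 1190 genes [2500] for fluoxetine in WT and 26 [93] in HT lithium against WT lithium. Same-numbered libraries deviated together weakly at most (r from -0.18 to 0.29 over 49 pairs, 10 of them over 0.1). The mean r within a comparison and sex ran from -0.02 to 0.09, and the numbers were not taken to pair libraries. With the replicate block, 31 genes [2] were called in HT fluoxetine against WT fluoxetine and 2 members [1] in HT lithium against WT vehicle. With the compared groups alone, 2 members [1] were called for lithium in WT and 1 [2] in HT fluoxetine against WT vehicle, with 5 genes [2] in HT fluoxetine against WT fluoxetine, 449 [93] in HT lithium against WT lithium, 1460 [2209] in HT fluoxetine against HT lithium, and 4 and 1 [0 each] for lithium by sex in WT and HT. With females only, 0 members were called for fluoxetine in WT and HT, for lithium in HT and in HT fluoxetine against HT lithium [1 each], with 859 genes for fluoxetine in WT, 791 [2370] in HT, 50 for lithium in WT, 293 in HT, 278 in HT lithium against WT lithium, 1741 [3189] in HT fluoxetine against WT vehicle, 1807 [3598] in WT fluoxetine against WT lithium and 294 in HT fluoxetine against HT lithium. With males only, 0 members were called for either drug in either genotype, in HT fluoxetine or HT lithium against WT vehicle, and in WT fluoxetine against WT lithium [3], with 1036 and 703 genes for fluoxetine in WT and HT, 42 and 81 for lithium in WT and HT, 2 in HT lithium against WT lithium, 542 and 47 in HT fluoxetine and HT lithium against WT vehicle, 1153 in WT fluoxetine against WT lithium, 1353 in HT fluoxetine against HT lithium and 1 for fluoxetine by genotype. Without the 12 libraries with non-cortical markers, 0 members [2] were called in HT fluoxetine against WT vehicle, with 1476 genes for fluoxetine in HT, 1 for lithium by genotype, 3 for lithium by sex in HT and 167 in females against males. With marker covariates, 2 members [1] were called for fluoxetine in HT, with Pvalb added to Cort, and 1 [2] in HT fluoxetine against WT vehicle, where Pvalb was called (-0.24, adjusted p = 0.048) and Gad1 and Slc32a1 were not, with 38 genes in HT lithium against WT lithium, 632 in HT lithium against WT vehicle, 1 for lithium by genotype and 47 in females against males. Leaving out 1 library at a time gave 1 to 132 genes in HT fluoxetine against WT fluoxetine, 356 to 1597 for lithium in HT, 214 to 435 for lithium in WT, 15 to 141 in HT lithium against WT lithium, 807 to 1438 in HT lithium against WT vehicle, 1 to 2 in HT vehicle against WT vehicle, 199 to 1011 in females against males, 0 to 1 for fluoxetine by sex in WT, 0 to 5 for lithium by genotype, 0 to 21 for lithium by sex in HT and 0 to 1 in WT. It gave 1 to 2 members in HT fluoxetine against HT lithium, 0 to 2 in HT fluoxetine against WT vehicle, 1 to 3 in HT lithium against WT vehicle and 0 to 1 in females against males.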
